A study of Mus musculus with 3 samples.

Results

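The genes described here encode the translation initiation factors, with Eif3f, a subunit of initiation factor eIF3, set against the other subunits of that complex. Members were all genes whose symbol began with Eif followed by a digit from 1 to 6, without the Eif2ak kinases, that held at least 20 UMIs (unique molecular identifiers, each counting 1 captured mRNA molecule) over the 3 count matrices. This gave 48 members of 52 such symbols and of 27998 genes listed. The members comprised 14 Eif3 genes, 13 of them other than Eif3f, and 34 genes of the other factors. Among the members, the fewest UMIs were those of Eif3j2 (741) and Eif4ebp2 (782), and the 4 symbols left out were Eif2c5 (7 UMIs), Eif4e1b (1 UMI), Eif2s3y (1 UMI) and Eif4ebp3 (0 UMIs). Eif3f was chosen by its measured level, low in the CpG library against Control, and the members by their summed UMIs, so the ratios of Eif3f to Control describe that choice and were not tested.

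The study profiled phagocytes of the Peyer's patches, the lymphoid follicles of the small intestine wall, by droplet-based sequencing of mRNA 3' ends. The 3 groups were Control (no treatment), CpG (125 µg) and R848 (10 µg), the agonists having been given intraperitoneally in 100 µL of PBS 9 hours earlier. Each group was 1 library from pooled Peyer's patches (88, 85 and 90 of them in Control, CpG and R848) of 12 female C57BL/6Rj mice. CD11c-positive cells were enriched on beads and live cDC1, cDC2, LysoDC (lysozyme-expressing dendritic cells) and macrophages were sorted together. CpG DNA is a ligand of Toll-like receptor TLR9 and R848 of TLR7, both endosomal sensors of nucleic acids. With 1 library per group, agonist and library cannot be told apart, no test between groups was possible, and every interval below covers counting error only. No injection is listed for Control, so ratios to Control also hold the injection and the PBS, which cannot be told apart from the agonist.

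Initiation factors bring the small ribosomal subunit, the initiator tRNA and the mRNA together. The eIF4 proteins recognise the mRNA cap and unwind the leader, eIF2 delivers the initiator tRNA, eIF1 and eIF1A keep the scanning ribosome open, and eIF5 and eIF5B close the process at the start codon. The eIF3 complex is the large scaffold on the small subunit that holds these factors together Its f and h subunits carry MPN domains, and its a, c, e, k, l and m subunits carry PCI domains. Regulation of initiation is well known in dendritic cells, where sensing of microbial ligands is followed by rapid changes in protein synthesis.

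The matrices held 5344 (Control), 5049 (CpG) and 5133 (R848) cell barcodes with 43537067, 43767864 and 46556726 UMIs in all. After filters on genes detected and mitochondrial reads and the removal of 202 to 225 likely doublets per library, 4821 to 5079 cells were kept, and 33 to 42 barcode sequences were shared between any pair of libraries. Cells were sorted into gates by the share of their UMIs falling on marker lists, without use of any member. The LysoDC gate took cells with at least 1% of UMIs on Lyz1, C1qa, C1qb and C1qc and no Cd4 UMI, and the macrophage gate took such cells with a Cd4 UMI. The mature gate took cells with at least 0.3% on a list led by Ccr7 and Fscn1, and the cDC2 gate cells with at least 0.05% on a list that included Sirpa, Cd209a and Ltb. In Control, CpG and R848 the gates held 1438, 850 and 1211 LysoDC, 547, 389 and 601 macrophage, 340, 2852 and 2224 mature and 1981, 530 and 485 cDC2 cells. The cDC1 gate held 433, 24 and 11 cells, so it is described apart from the other 4 gates.

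The gates are ranges of a score and not pure cell types. Control cells within a factor of 2 of a limit numbered 58 below and 153 above it for the lysozyme list, 181 and 144 for the mature list, and 212 and 453 for the cDC2 list. Of the macrophage markers, Cx3cr1 stood at 266, 266 and 219 CPM (UMIs per 1000000 UMIs of the gate) in the macrophage gate of Control, CpG and R848, and Cd163 at 0 in all 3. The summed macrophage list, which includes Cd4, stood at 609, 580 and 483 CPM there and at 190, 220 and 203 CPM in the LysoDC gate. Only a Cd4 UMI separates these gates, so a macrophage in which none was captured falls in the LysoDC gate. In the cDC2 gate Cd209a stood at 129, 1.20 and 28.0 CPM and Sirpa at 104, 103 and 107 CPM. The summed cDC2 list in the mature gate stood at 591, 280 and 147 CPM and the summed cDC1 list at 119, 46.0 and 79.2 CPM. The neutrophil list in the cDC2 gate stood at 9.36, 13.3 and 147 CPM. Ribosomal protein genes took 12.2%, 9.94% and 10.1% of UMIs in the LysoDC gate and 20.9%, 16.4% and 16.7% in the cDC2 gate. The part of these shifts in the results below was not tested.

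Eif3f (ENSMUSG00000031029) is a protein-coding gene on the plus strand at chr7:108934417-108942951 (GRCm38, GENCODE M21), and no other annotated gene overlaps it. In the LysoDC gate it stood at 327 CPM (95% interval 318 to 336) in Control, 106 CPM (100.3 to 112) with CpG and 133 CPM (128 to 139) with R848. In the macrophage gate the levels were 253 CPM (240 to 267), 89.6 CPM (81.5 to 98.2) and 109 CPM (102 to 117). The levels in the mature gate were 478 CPM (447 to 511), 141 CPM (136 to 147) and 215 CPM (207 to 223). The cDC2 gate gave the highest level of these 4 in each library, 587 CPM (574 to 600.4), 171 CPM (159 to 183) and 249 CPM (233 to 265). In every one of these gates Control was highest, R848 lay between, CpG was lowest, and no intervals of a gate overlapped between libraries.

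**Figure D1:**
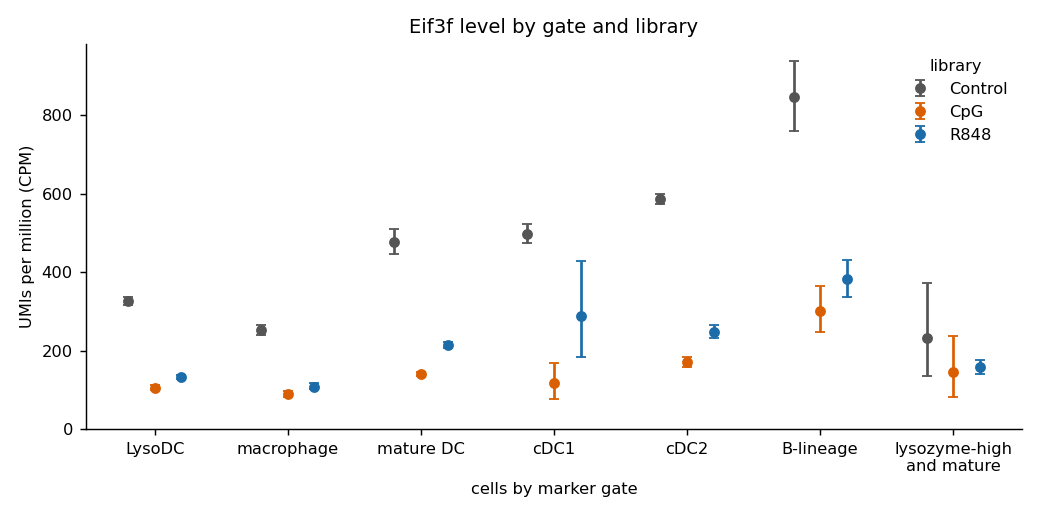
Eif3f level in CPM (UMIs per 1000000 UMIs of the gate) by gate and library, with exact Poisson 95% intervals as bars. In the LysoDC gate the 3 libraries sit at 327, 106 and 133 CPM, and Control is highest in each of the other gates, with overlapping intervals among the few cells that passed both the lysozyme and the mature limits.

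In Control the order of gates for Eif3f ran from the macrophage gate over the LysoDC gate to the mature gate, the cDC1 gate at 498 CPM (475 to 523), the cDC2 gate and the B-lineage gate at 847 CPM (761 to 939). The mature and cDC1 levels had overlapping intervals and all other neighbours in that order had separate ones. The B-lineage gate held 67, 47 and 81 cells from outside the intended sort, and Eif3f stood there at 303 CPM (249 to 365) with CpG and 382 CPM (336 to 432) with R848. The cDC1 gate gave 118 CPM (78.2 to 170.0) on 28 UMIs with CpG and 289 CPM (185 to 430) on 24 UMIs with R848. Over all kept cells the levels were 436, 131 and 171 CPM.

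Expressed as a ratio, Eif3f was lower with CpG than in Control by 3.08-fold (2.89 to 3.28) in the LysoDC gate, 2.82-fold (2.54 to 3.15) in the macrophage gate, 3.39-fold (3.14 to 3.66) in the mature gate and 3.43-fold (3.20 to 3.69) in the cDC2 gate. With R848 it was lower by 2.45-fold (2.33 to 2.59), 2.32-fold (2.13 to 2.53), 2.23-fold (2.06 to 2.40) and 2.36-fold (2.21 to 2.53) in the same gates. Both sets of ratios share the Control library. Between the agonists, which share no library, Eif3f was higher with R848 than with CpG by 1.25-fold (1.17 to 1.35), 1.22-fold (1.08 to 1.37), 1.52-fold (1.44 to 1.61) and 1.45-fold (1.32 to 1.60). The intervals of the mature and cDC2 gates overlapped each other, and that of the mature gate lay above those of both lysozyme-high gates.

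Clusters built within each library without the gates gave the same separation. Over 21 Control clusters Eif3f ranged from 257 to 887 CPM. Clusters assigned by their markers to the LysoDC class ranged from 273 to 440 CPM in Control, 97.9 to 112 CPM with CpG and 124 to 193 CPM with R848. Those of the mature class ranged from 400 to 610 CPM, 105 to 183 CPM and 162 to 279 CPM, and those of the cDC2 class from 507 to 675 CPM, 171 to 181 CPM and 244 to 262 CPM. No cluster of these 3 classes in a treated library reached the lowest cluster of its class in Control.

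To see how the lower level was spread over cells, each cell was thinned to 3000 UMIs, and the share of cells with an Eif3f UMI was counted. In the LysoDC gate 62.8% of Control, 23.9% of CpG and 32.9% of R848 cells had one, against 62.9%, 24.7% and 32.4% for a Poisson count of the same mean. The mature gate gave shares of 77.7%, 34.5% and 47.2%, against Poisson shares of 75.9%, 35.0% and 48.0%. In the cDC2 gate they were 81.6%, 40.8% and 54.7%, and in the macrophage gate 51.1%, 25.0% and 28.9%. The variance of Eif3f UMIs over their mean lay between 0.88 and 1.09 in all 12 sets of cells, near the value of 1 for a Poisson count. The means were only 0.27 to 1.74 UMIs per cell. At such counts the ratio lies near 1 even where levels differ between cells, so it cannot show an even spread. Thinned to 6000 UMIs it lay between 0.91 and 1.25, above 1 in 11 of the 12, and in the macrophage gate of Control 73.8% of cells (69.7% to 77.7%) had a UMI against a Poisson share of 77.9%. Thinned to 3000 UMIs, Eif3h, which encodes the other MPN subunit, was detected in 56.9%, 47.9% and 51.0% of LysoDC-gate cells. Cells with fewer than 3000 UMIs were left out, 83, 30 and 24 of them in the LysoDC gate and 48, 204 and 205 in the mature gate. Without thinning the shares in the LysoDC gate were 91.2%, 68.9% and 73.9%, at median depths of 10277, 13709 and 12591 UMIs per cell. Every phagocyte type expresses the gene, so no gate could serve as a level for free RNA; an estimate of free RNA at 4.52%, 2.53% and 2.98% of UMIs would contribute 19.7, 3.32 and 5.09 CPM of Eif3f.

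**Figure D2:**
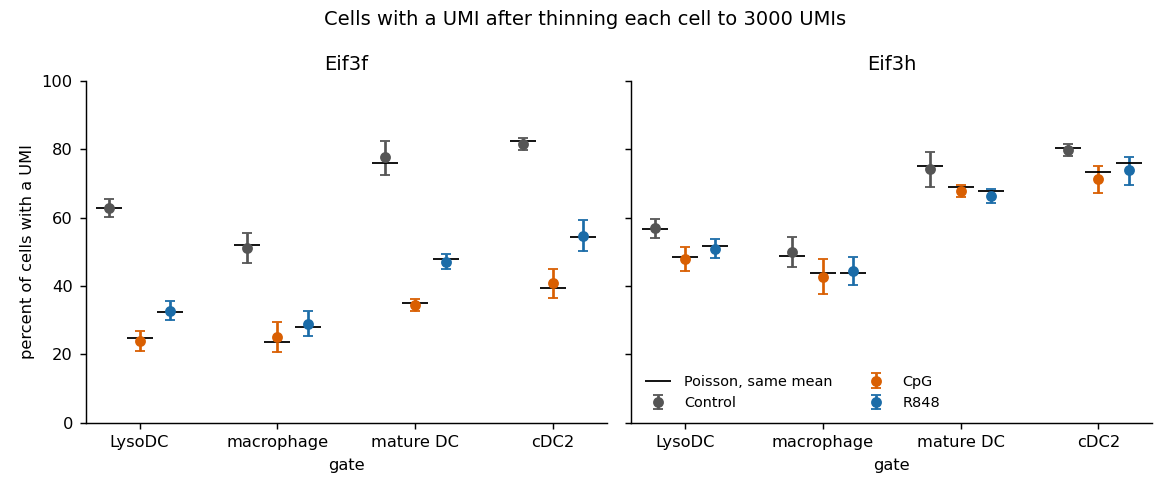
Percent of cells with at least 1 UMI of Eif3f or Eif3h after thinning every cell to 3000 UMIs, by gate and library, with exact binomial 95% intervals and a bar at the share that a Poisson count of the same mean gives. Eif3f falls from 62.8% to 23.9% and 32.9% in the LysoDC gate, whereas Eif3h stays between 47.9% and 56.9%.

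The 250 bases before the annotated start of Eif3f are shown because they are poorer in GC than those of most members and because the gene's start carries a pyrimidine run. RefSeq windows (GRCm38.p6) were found for 38 of the 48 members, 10 of them Eif3 genes. Eif3f is set here beside Eif3k, the eIF3 subunit nearest to it in level in the Control LysoDC gate, and beside Slc39a1 and Notch2, the genes whose ratios were nearest to those of Eif3f (described further on). The windows are chr7:108934165-108934414 on the plus strand for Eif3f, chr7:28981889-28982138 on the minus strand for Eif3k, chr3:90247942-90248191 on the plus strand for Slc39a1 and chr3:98013288-98013537 on the plus strand for Notch2. Capitals mark CACGTG, the E-box letters, and TATAAA, the TATA letters.
Eif3f: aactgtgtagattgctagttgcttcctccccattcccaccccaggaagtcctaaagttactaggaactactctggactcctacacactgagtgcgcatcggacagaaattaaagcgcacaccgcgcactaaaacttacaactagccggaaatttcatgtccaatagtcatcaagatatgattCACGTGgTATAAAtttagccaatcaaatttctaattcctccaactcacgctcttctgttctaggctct
Eif3k: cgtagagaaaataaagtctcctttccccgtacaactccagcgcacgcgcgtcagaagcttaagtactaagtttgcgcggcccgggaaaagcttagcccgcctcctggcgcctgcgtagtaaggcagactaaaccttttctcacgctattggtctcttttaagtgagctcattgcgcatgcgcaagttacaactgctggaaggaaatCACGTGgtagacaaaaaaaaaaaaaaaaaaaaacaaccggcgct
Slc39a1: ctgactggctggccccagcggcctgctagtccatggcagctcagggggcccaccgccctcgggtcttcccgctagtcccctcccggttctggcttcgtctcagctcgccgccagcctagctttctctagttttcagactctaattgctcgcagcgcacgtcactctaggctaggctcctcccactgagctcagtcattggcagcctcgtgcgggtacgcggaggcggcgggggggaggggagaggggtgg
Notch2: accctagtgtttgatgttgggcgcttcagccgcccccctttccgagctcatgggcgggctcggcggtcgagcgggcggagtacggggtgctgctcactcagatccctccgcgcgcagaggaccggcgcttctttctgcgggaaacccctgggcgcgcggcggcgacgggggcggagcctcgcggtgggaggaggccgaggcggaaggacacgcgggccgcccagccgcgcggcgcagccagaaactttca

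In Eif3f the CACGTG begins 68 bases before the start and the TATAAA 61 bases before it, without overlap, and in Eif3k the CACGTG begins 44 bases before it. Neither set of letters occurs in the Slc39a1 and Notch2 windows. Searching both strands of all 32851 RefSeq windows (300 bases, of which 250 lie before the start), CACGTG was found in 7.15% of windows and in 12 of the 50 member windows, those of 10 genes: Eif1b, Eif3a, Eif3f, Eif3k, Eif4a1, Eif4e, Eif4g1, Eif4h, Eif5a and Eif5a2. TATAAA was found in 13.6% of all windows and in 3 member windows, those of Eif2s1, Eif3b and Eif3f. CCGGAAGT, the letters of an ETS site, occurred in 3.89% of all windows and in 9 member windows. The NRF1 palindrome occurred in 0.971% of all windows and in 1 member window, that of Eif3k. TGACGTCA, the letters of a cAMP response element, and an NF-kappaB form occurred in 1.79% and 0.411% of all windows and in 0 member windows. An interferon-response form (GAAA repeated after a spacer) occurred in 3.44% of all windows and in 3 member windows, those of Eif2s1, Eif2s3x and Eif3a.

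The GC content before the Eif3f start was 43.6%, and 20.1% of all windows were lower, against 48.0% for Eif3k, 65.6% for Eif3a, 66.4% for Slc39a1 and 72.0% for Notch2. The median was 62.4% over member windows, which ranged from 41.2% to 82.8%, and 52.4% over all windows. The annotated Eif3f transcript starts with C followed by further pyrimidines, in a run of 11. A start of C with at least 4 further pyrimidines is the form known from ribosomal protein mRNAs. It was found in 2.51% of all windows and in 2 of the 38 members with a window, Eif3f and Eif2s3x. Of the Eif3 genes, Eif3e, Eif3h, Eif3i and Eif3j2 had no window, so their starts were not examined. A match of letters describes the sequence and was not tied to the levels.

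The other eIF3 subunits showed no comparable shift. Of the 13, Eif3j2 never reached the 20 CPM at which a gene was counted as measured, with at most 8.50 CPM in these 4 gates, and reads of its near copy Eif3j1 may be split between them. The ratios that follow are log2 ratios to Control with 5 CPM added to both levels. The median over the 12 measured other subunits was -0.10, -0.03, -0.20 and -0.02 with CpG in the LysoDC, macrophage, mature and cDC2 gates, where Eif3f stood at -1.58, -1.45, -1.73 and -1.75. With R848 it was -0.04, 0.06, -0.56 and 0.09, where Eif3f stood at -1.26, -1.18, -1.14 and -1.22. Subtracting that median left Eif3f at -1.48, -1.42, -1.52 and -1.73 with CpG and at -1.23, -1.24, -0.57 and -1.32 with R848. The mature gate with R848 was the 1 place where all 12 other subunits lay below 0, and where Eif3f stood out least. With CpG, 9 of the 12 lay below 0 in the mature gate and 8 in the LysoDC gate.

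**Figure D3:**
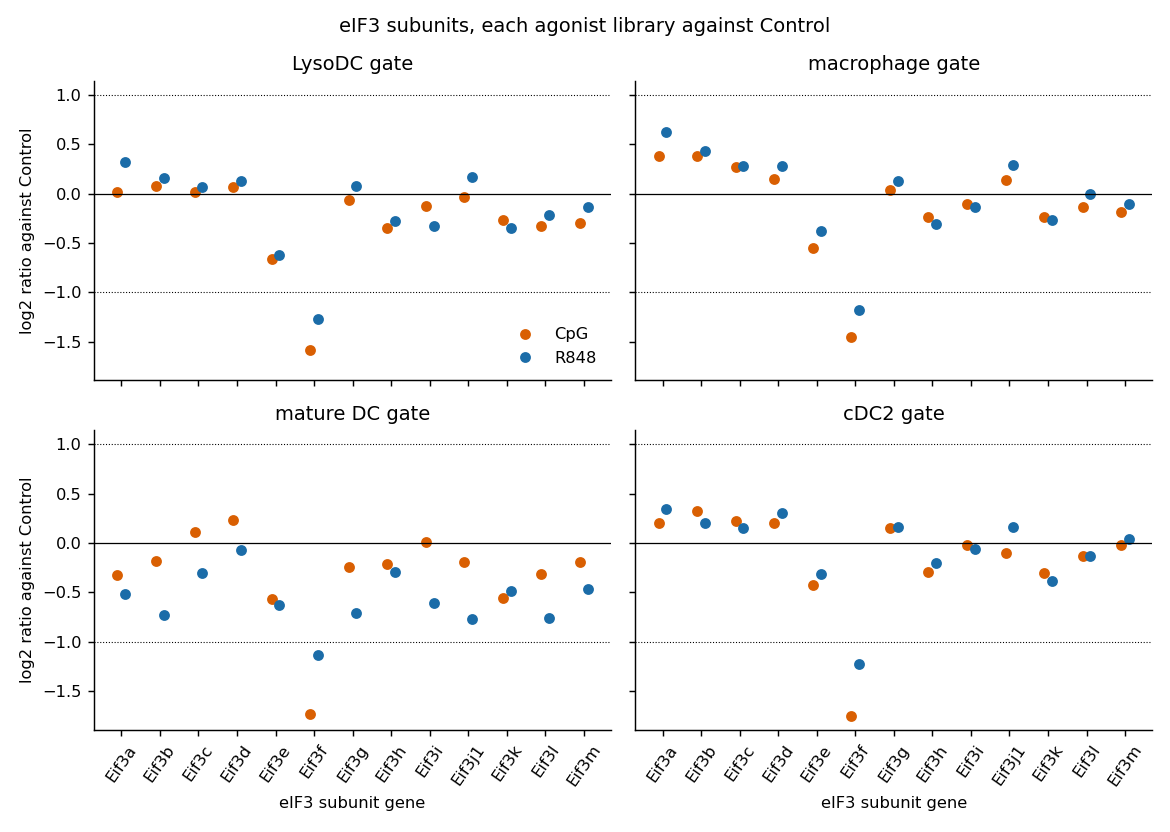
Log2 ratio to Control (5 CPM added) of each measured Eif3 subunit gene in 4 gates, for CpG and R848. Eif3f lies lowest in every panel, from -1.75 to -1.14, while the median of the other 12 lies between -0.56 and 0.09.

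Among the core subunits that assemble the complex, Eif3a stood at 168, 170.5 and 211 CPM in the LysoDC gate (Control, CpG, R848) and at 165, 131 and 113 CPM in the mature gate. Eif3b, which anchors the g and i subunits, stood at 56.7, 60.0 and 63.6 CPM and at 46.6, 40.5 and 26.1 CPM. Eif3c stood at 165, 167 and 173 CPM and at 196, 212 and 158 CPM. These 3 were level or higher with both agonists in the LysoDC gate, and lower with R848 in the mature gate. Eif3g, an RNA-binding subunit, stood at 91.8, 87.4 and 97.2 CPM in the LysoDC gate and at 119, 99.6 and 71.0 CPM in the mature gate. Eif3i, a WD-repeat subunit, stood at 125, 114 and 99.2 CPM and at 160.3, 161 and 103 CPM. Eif3i was below Control with both agonists in the LysoDC gate (log2 ratios -0.13 and -0.32), and both genes had their lowest mature-gate level with R848.

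Eif3e, a PCI subunit, had the lowest CpG ratio of the complex after Eif3f in the LysoDC gate. It stood at 214, 134 and 138 CPM there, at 167, 112 and 128 CPM in the macrophage gate, at 314, 211 and 201 CPM in the mature gate and at 460.1, 342 and 368 CPM in the cDC2 gate. Its log2 ratio lay between -0.66 and -0.32 in all 8 comparisons with Control, below 0 throughout but short of 2-fold. Eif3h, the other MPN subunit, stood at 289, 226 and 237 CPM in the LysoDC gate and at 549, 448 and 476 CPM in the cDC2 gate. Eif3k, a small peripheral subunit, stood at 335, 278 and 262 CPM and at 557, 452 and 426 CPM. Both were below Control with each agonist in all 4 gates, the lowest log2 ratio being -0.56 for Eif3k in the mature gate with CpG (409 to 277 CPM). Eif3k and Eif3f thus had near equal levels in the Control LysoDC gate, and Eif3k was the higher of these subunits in both treated libraries.

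The remaining subunits stayed within 2-fold of Control in all 4 gates. Eif3d, which can itself bind the cap of some mRNAs, stood at 50.8, 53.3 and 55.9 CPM in the LysoDC gate and at 80.9, 96.2 and 76.9 CPM in the mature gate. Eif3l, the partner of Eif3k, stood at 74.3, 58.3 and 63.1 CPM and at 81.5, 64.7 and 46.0 CPM. Eif3m, a PCI subunit, stood at 127, 103 and 115 CPM and at 182, 159 and 130.3 CPM. Eif3j1, which encodes the loosely attached j subunit, stood at 38.6, 37.5 and 44.1 CPM and at 24.7, 20.9 and 12.4 CPM. Of these 4, Eif3d had the R848 ratio nearest to 0 in the mature gate, at -0.07, and the other ratios there ran from -0.77 to -0.47.

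As a share of all Eif3 UMIs, which does not depend on the library total, Eif3f took 15.8%, 6.63% and 7.84% in the LysoDC gate and 14.4%, 5.79% and 6.67% in the macrophage gate. It took 17.6%, 7.02% and 11.8% in the mature gate, in the cDC2 gate 16.9%, 6.05% and 8.40% and in the B-lineage gate 20.1%, 8.78% and 10.8%. Eif3k took 16.2%, 17.3% and 15.4% in the LysoDC gate, so that both genes gave near equal parts of the Eif3 UMIs in Control and not with an agonist. The summed level of the other subunits was 1741, 1496 and 1565 CPM in the LysoDC gate, 1506, 1457 and 1525 CPM in the macrophage gate, 2245, 1870 and 1603 CPM in the mature gate and 2890, 2655 and 2710 CPM in the cDC2 gate.

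Over all members, few ratios to Control passed 2-fold. In the LysoDC gate 40 members were measured (at least 20 CPM in either library) and 1 of them, Eif3f, was at least 2-fold lower with CpG, where 0.688% of all 4651 measured genes were. None was 2-fold higher, against 3.01% of genes. The same count, 1 lower and 0 higher, came with R848, against 1.57% and 4.04% of genes. In the macrophage gate 40 were measured, with 1 lower and 0 higher with CpG (0.701% and 3.73% of genes) and 1 lower and 1 higher with R848 (2.07% and 5.43% of genes). In the mature gate 37 were measured with CpG, 1 lower and 1 higher (5.55% and 8.47% of genes), and 36 with R848, 1 lower and 0 higher (5.75% and 5.5% of genes). In the cDC2 gate 44 and 43 were measured, each with 1 lower and 0 higher, against 0.789% lower and 2.79% higher with CpG and 0.63% and 2.01% with R848. In the mature gate with R848 the lower count became 2 under 6 other settings, given in the closing section. The lower member was Eif3f in all 8 comparisons, so nothing beyond the choice of that gene is read from those counts.

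**Figure D4:**
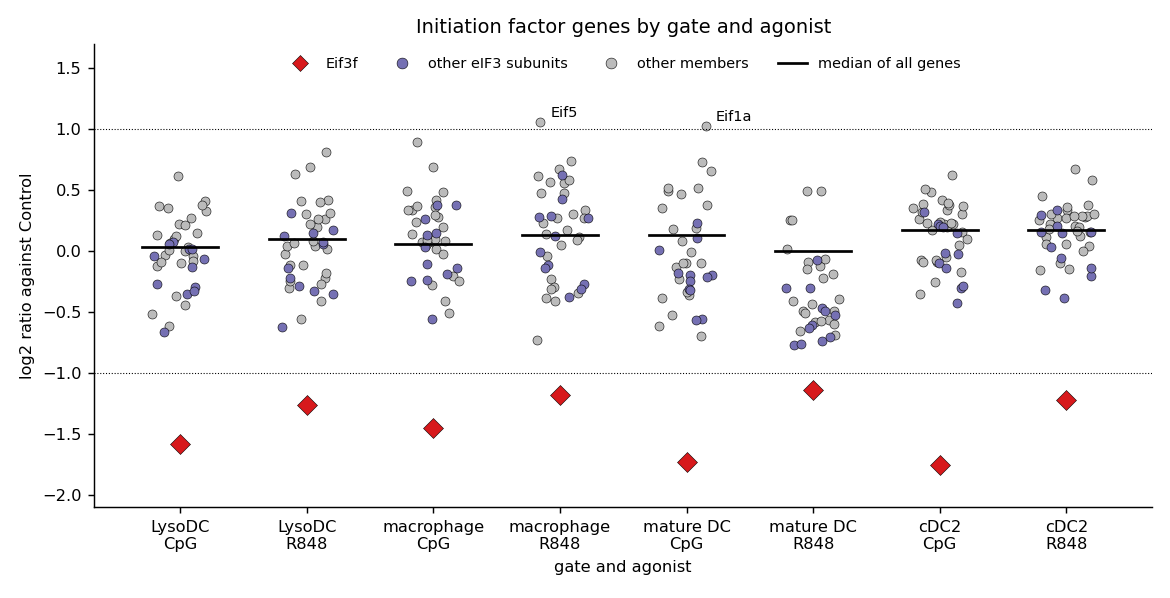
Log2 ratio to Control (5 CPM added) of all measured members in 4 gates for CpG and R848, with Eif3f as a diamond, the other Eif3 genes and the other members as points, a bar at the median of all measured genes and dotted lines at 2-fold. Eif3f is the only member below -1 in each panel, and Eif1a (1.03) and Eif5 (1.06) are the members above 1.

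The median of the measured members was 0.00, 0.10, -0.10 and 0.20 with CpG in the LysoDC, macrophage, mature and cDC2 gates, where that of all genes was 0.03, 0.06, 0.13 and 0.17. With R848 it was 0.05, 0.16, -0.48 and 0.18, against 0.10, 0.14, -0.00 and 0.17. In the mature gate with R848, 31 of the 36 measured members lay below 0, and the medians of members and of all genes were furthest apart there. Between the agonists 0 members passed 2-fold in any of the 4 gates, where 0.629%, 0.607%, 3.69% and 0.418% of genes were lower with R848 and 1.41%, 1.82%, 1.3% and 0.279% were higher. In the mature gate 32 of 37 members were lower with R848 than with CpG, with a median of -0.35 against -0.11 for all genes. That gate held 340 Control cells, and its cDC1 and cDC2 markers differed between libraries as given above.

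Of the 5 Eif1 genes, Eif1 was the most abundant member, at 1290.4, 1002 and 1069.8 CPM in the LysoDC gate and 2597, 1693 and 2626 CPM in the mature gate. Eif1b, its paralogue, stood at 76.8, 70.0 and 70.4 CPM and at 41.3, 31.0 and 29.2 CPM. The eIF1A protein is encoded by the paralogues Eif1a and Eif1ax, whose near-identical coding sequences may exchange reads. Eif1a in the mature gate stood at 52.0, 111 and 75.3 CPM, and its CpG level was 2.14-fold (1.74 to 2.65) that of Control, the 1 higher member there. That call was lost under 5 other settings, given in the closing section. Eif1ax stood at 104, 149 and 95.5 CPM in the mature gate and at 29.3, 33.1 and 34.4 CPM in the LysoDC gate. Eif1ad, which encodes a protein with an eIF1A-like domain, was higher with R848 in the macrophage gate (38.6 to 59.6 CPM) and lower in the mature gate (37.5 to 23.6 CPM), short of 2-fold in both.

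The 3 subunit genes of eIF2, which carries the initiator tRNA, stayed within 2-fold in all 4 gates. Eif2s1, which encodes the alpha subunit that stress kinases phosphorylate, stood at 63.9, 84.0 and 105 CPM in the macrophage gate, 93.8, 121 and 61.0 CPM in the mature gate and 111, 174 and 169 CPM in the cDC2 gate. Its R848 level was thus above Control in the macrophage and cDC2 gates and below it in the mature gate. Eif2s2 (beta) stood at 205, 226 and 247 CPM in the LysoDC gate and Eif2s3x (gamma) at 36.0, 35.2 and 37.2 CPM. The exchange factor eIF2B, which recharges eIF2 with GTP, was low throughout: in the LysoDC gate of Control its 5 genes stood at 14.5 CPM (Eif2b1), 22.4 CPM (Eif2b2), 16.8 CPM (Eif2b3), 11.6 CPM (Eif2b4) and 23.4 CPM (Eif2b5). Eif2a and Eif2d, which serve alternative routes of tRNA delivery, stood at 33.0 and 9.99 CPM there.

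Among the cap-binding and helicase factors, Eif4a1, the main helicase of leader unwinding, stood at 644, 778 and 682 CPM in the LysoDC gate and 507, 823 and 709 CPM in the macrophage gate. Its paralogue Eif4a2 stood at 164, 105 and 122 CPM in the LysoDC gate, 170.1, 119 and 137 CPM in the macrophage gate, 219, 368 and 263 CPM in the mature gate and 242, 251 and 275 CPM in the cDC2 gate. Eif4a2 was therefore lower with both agonists in the lysozyme-high gates and higher in the mature gate. Its share of the UMIs of both helicase genes went from 20.3% to 11.9% (CpG) and 15.2% (R848) in the LysoDC gate and from 20.8% to 32.5% and 30.7% in the mature gate. Eif4a3, of the exon junction complex, stood at 58.0, 58.4 and 53.4 CPM in the LysoDC gate. The helicase cofactors Eif4b and Eif4h stood at 106, 72.5 and 84.6 CPM and at 86.9, 81.9 and 88.3 CPM there, and only Eif4b was lower with both agonists in all 4 gates, with log2 ratios from -0.70 to -0.14.

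Eif4e, the cap-binding protein, stood at 50.7, 62.6 and 77.2 CPM in the macrophage gate and 53.6, 75.9 and 36.3 CPM in the mature gate. Between the agonists it had the lowest ratio of any member in the mature gate, at -0.97 for R848 against CpG. The cap-binding relatives Eif4e2, known as a repressor, and Eif4e3 stood at 116, 108 and 119 CPM and at 31.1, 43.0 and 32.9 CPM in the LysoDC gate. Eif4ebp1, which holds eIF4E inactive when unphosphorylated, stood at 123, 127 and 82.1 CPM in the LysoDC gate and at 88.9, 106 and 51.9 CPM in the macrophage gate. It was the member with the lowest R848 to CpG ratio in the macrophage gate (-0.97), and Eif4ebp2 and Eif4enif1, which encodes an eIF4E transporter, stayed at or below 18.5 CPM in the 4 gates.

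The scaffold Eif4g1 stood at 61.4, 78.4 and 82.7 CPM in the LysoDC gate. Eif4g2, a related scaffold that lacks the eIF4E-binding region, stood at 141, 182 and 231 CPM there, and was higher with both agonists in all 4 gates by 0.26 to 0.74 on the log2 scale. Eif4g3 stood at 57.8, 67.7 and 92.7 CPM in the LysoDC gate and at 19.8, 13.9 and 5.35 CPM in the mature gate. The Control level in that gate lay just under the 20 CPM minimum, so its log2 ratio of -1.26 with R848 was not counted as a call. Its share of Eif4g UMIs was 9.59%, 5.34% and 2.57% in the mature gate and 22.2%, 20.7% and 22.8% in the LysoDC gate.

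Eif5, which triggers GTP hydrolysis on eIF2 at the start codon, stood at 105, 199.5 and 224 CPM in the macrophage gate. Its R848 level there was 2.14-fold (1.94 to 2.35) that of Control, the 1 higher member, and its CpG level 1.91-fold (1.72 to 2.12). The 2-fold call was lost when 20 CPM was added or when libraries were scaled by their median ratio. In the LysoDC gate Eif5 stood at 88.1, 138 and 159 CPM, in the cDC2 gate at 131, 173 and 172 CPM and in the mature gate at 125, 164 and 112 CPM. It was above Control in 7 of the 8 comparisons. Eif5b, the subunit-joining GTPase, stood at 146, 154 and 172 CPM in the LysoDC gate and 139.9, 109.8 and 84.8 CPM in the mature gate. Eif5a, the hypusine-carrying factor that acts mainly in elongation, stood at 506, 506 and 427 CPM and at 484, 452 and 305 CPM, and its paralogue Eif5a2 at no more than 16.2 CPM in the 4 gates. Eif6, which keeps the large subunit from joining early, stood at 128, 167 and 159 CPM in the LysoDC gate and was higher with CpG in all 4 gates by 0.38 to 0.52.

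In the cDC1 gate, with 24 CpG and 11 R848 cells, levels rested on few UMIs. Of 42 measured members 2 were lower and 2 higher with CpG, where 4.97% and 13% of genes were, and 3 were lower and 3 higher with R848, where 9.72% and 24.9% of genes were. Eif3f was not among the members called lower with R848. Its log2 ratio there was -0.78 (498 to 289 CPM), and 709 of 5259 genes had a lower one. Subtracting the median of the other subunits left it at -0.59. With CpG, Eif1ax was higher (58.1 to 193 CPM, 3.33-fold, 2.36 to 4.61), as was Eif4ebp1 (58.7 to 134 CPM, 2.29-fold, 1.52 to 3.34), and Eif4b was lower beside Eif3f (84.2 to 37.8 CPM, ratio 0.449, 0.203 to 0.865). With R848, Eif4g2 was higher (124 to 289 CPM, 2.33-fold, 1.48 to 3.52), as was Eif4e2 (75.5 to 169 CPM, 2.23-fold, 1.20 to 3.82). The calls for Eif2b4 (3 UMIs), Eif2s3x (1 UMI), Eif4ebp1 (1 UMI) and Eif2b1 (0 UMIs) with R848 had fold intervals that contained 1.

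Levels also differed between gates within each library. Against the LysoDC gate, 0 of 40 members passed 2-fold in the macrophage gate in any library, where 1.22%, 1.2% and 1.03% of genes were lower and 1.84%, 1.47% and 1.15% were higher. In the mature gate 3, 4 and 8 members were at least 2-fold lower (19.2%, 21.8% and 26.8% of genes) and 2, 4 and 3 were higher (13.1%, 18.1% and 15.6% of genes). The 3 members lower in every library were Eif4g3, at -1.34, -1.94 and -3.24, Eif4e3, at -1.30, -1.23 and -1.26, and Eif4ebp1, at -2.43, -3.05 and -2.47. Eif1ax was higher in every library, at 1.67, 2.01 and 1.35.

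**Figure D5:**
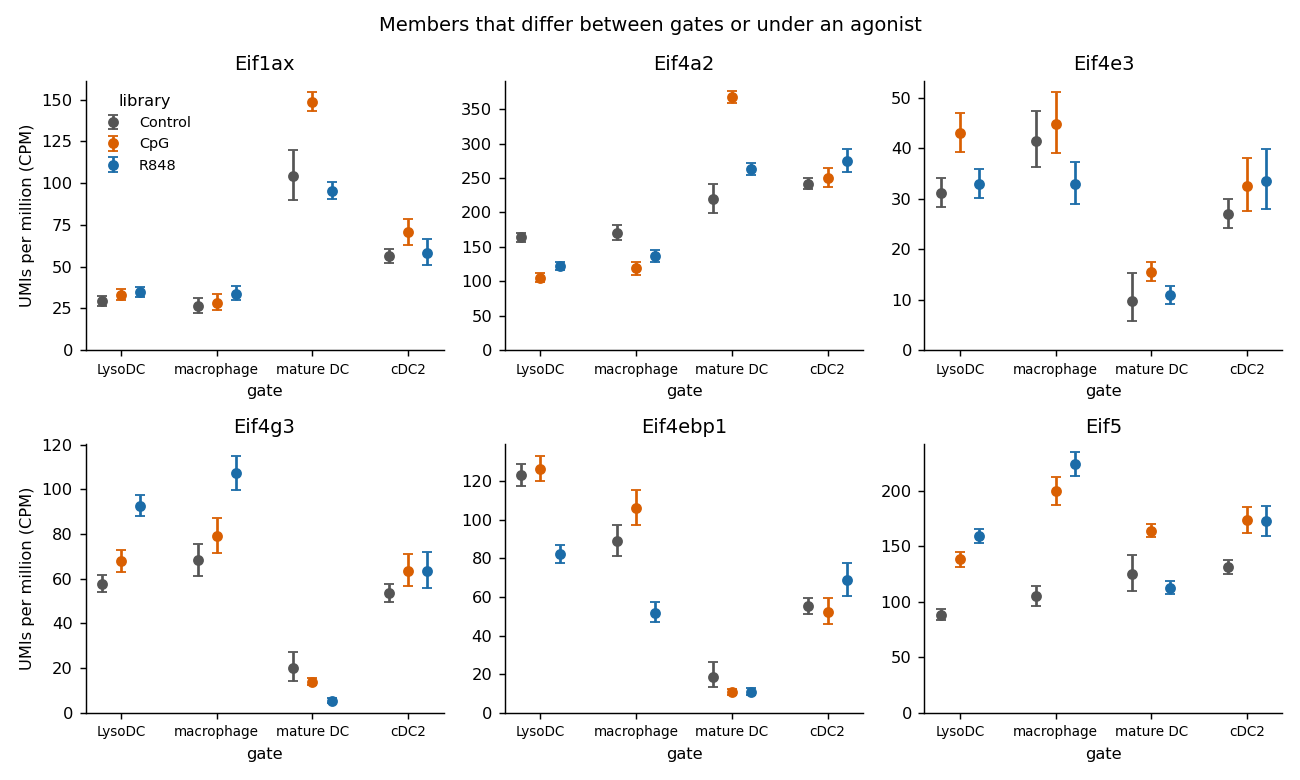
Level in CPM, with exact Poisson 95% intervals as bars, of 6 members in 4 gates and 3 libraries (linear axes from 0, a range for each gene). Eif4g3, Eif4ebp1 and Eif4e3 lie lowest in the mature gate in all 3 libraries, Eif1ax lies highest there, Eif4a2 with CpG is lower than Control in the LysoDC gate (105 against 164 CPM) and higher in the mature gate (368 against 219 CPM), and Eif5 with R848 reaches 224 CPM in the macrophage gate.

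In the cDC2 gate 1, 1 and 0 members were lower than in the LysoDC gate (10.4%, 10.5% and 11.1% of genes) and 1, 6 and 4 were higher (9.09%, 13.1% and 11.4% of genes). All 13 measured Eif3 genes were above 0 there in all 3 libraries, with a median of 0.72, 0.86 and 0.77 against 0.17, 0.32 and 0.23 for all genes. Eif3e was at least 2-fold higher in every library, at 1.09, 1.33 and 1.39. Eif3f shared this order of gates in every library: its ratio to the LysoDC gate was 0.83, 0.66 and 0.88 in the cDC2 gate, 0.54, 0.39 and 0.67 in the mature gate and -0.36, -0.23 and -0.28 in the macrophage gate. The order of these 4 gates by Eif3f level was thus the same in the 3 libraries.

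Among genes that passed a minimum in Control, few outside the family shared the breadth of the Eif3f shift. Of 3127 genes with at least 20 CPM in all 4 gates of Control, 36 of them members, 4 were at least 2-fold lower in all 4 gates with both agonists, and 8 were higher. The 4 were Eif3f, Slc39a1, which encodes a zinc importer, Notch2, which encodes a Notch receptor, and mt-Nd3, a mitochondrially encoded subunit of complex I. A minimum set in Control leaves out higher genes that were low there, such as Eif2ak2 (12.3 CPM in the mature gate and 12.9 CPM in the cDC2 gate). The counts of lower and higher genes therefore cannot be set against each other. In the LysoDC gate Slc39a1 stood at 256, 96.7 and 99.2 CPM, Notch2 at 122, 41.1 and 35.3 CPM and mt-Nd3 at 198, 81.9 and 47.9 CPM. With CpG, 1 of 4651 genes had a lower ratio than Eif3f in the LysoDC gate, 11 of 4849 in the macrophage gate, 71 of 4472 in the mature gate and 3 of 4943 in the cDC2 gate. With R848, 34 of 4829, 62 of 5031, 187 of 4330 and 16 of 4918 did. Eif3f was chosen for its low level with CpG against Control, so these ranks describe that choice and were not tested.

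Likeness to Eif3f was also measured as the Euclidean distance between log2 ratios over 5 gates and both agonists (10 values), among 1318 genes with at least 50 CPM in every gate of Control. The nearest were Notch2 (distance 0.91), Slc39a1 (1.30), Rpl23a (1.63), which encodes a ribosomal protein, Bmp2k (1.89), which encodes a kinase, and Tacc1 (1.90), which encodes a coiled-coil protein of the centrosome. Without the thinly filled cDC1 gate, a choice made after seeing the data, Slc39a1 (0.74) came before Notch2 (0.83), and 4 of these 5 genes were again among the nearest 5. All values in this measure share the Control library. The 5 protein-coding genes annotated on either side of Eif3f gave no comparison, since they were at or near 0: Nlrp10, the nearest on the left, had 84, 54 and 32 UMIs in the whole libraries, and Tub, the nearest on the right, had 0.

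The other steps of translation were read from lists of genes outside the family. Of 8 elongation genes 7 were found, and 1 passed 2-fold in 1 of the 8 comparisons: Eef1e1 in the macrophage gate with R848 (20.2, 40.8 and 49.3 CPM in Control, CpG and R848), where 5.43% of genes were higher. The median log2 ratio of the list's measured genes was below 0 in all 8 comparisons, from -0.61 to -0.28. That of all genes ran from -0.00 to 0.17. The median of the 79 ribosomal protein genes was also below 0 in all 8, from -0.35 to -0.14, so the direction is not particular to this list. Eef1a1, Eef1b2, Eef1d, Eef1g and Eef2, which encode elongation factor subunits, were below Control in all 8, short of 2-fold, and Eef1a1 stood at 3361, 2437 and 2480 CPM in the LysoDC gate. None of the 5 release and recycling genes passed 2-fold in any of the 4 gates, with medians from -0.55 to 0.40. Over the 8 comparisons 0.63% to 5.75% of all genes were lower and 2.01% to 8.47% higher, with the highest shares in the mature gate. A count of 0 of 5 genes lies near those shares, so nothing is read from it. The same shares apply to the calls in the lists that follow. Of 5 poly(A)-binding genes, Paip1, which encodes a partner of the poly(A)-binding protein, was lower in the LysoDC gate (43.7, 16.3 and 15.9 CPM) and the mature gate (36.5, 11.1 and 9.19 CPM) with both agonists, and in the cDC2 gate with R848 (38.0 to 13.3 CPM). The median of that list ran from -0.58 to -0.19.

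Of 9 regulators of eIF4, Pdcd4, an inhibitor of the eIF4A helicase, was lower in the cDC2 gate with both agonists (33.6, 5.18 and 5.23 CPM) and in the mature gate with R848 (38.6 to 12.7 CPM). In the LysoDC gate (15.2, 3.30 and 1.88 CPM) and the macrophage gate (18.4, 2.80 and 2.41 CPM) its ratios were also past 2-fold, with log2 values from -1.66 to -1.28, but Control lay under the 20 CPM minimum. The shares of all genes given in the preceding paragraph apply to the calls here. The median of the measured eIF4 regulators (4 to 6 of 9) ran from -0.46 to 0.39. That of the measured stress-response genes described next (4 to 6 of 11) ran from 0.14 to 0.80. In the mature gate with CpG, Eif2ak1, Eif2ak2, Ddit3 and Ppp1r15b reached 20 CPM only in the treated library. Their Control levels were 13.4, 12.3, 10.7 and 10.7 CPM. That filter favours higher genes, so no direction is read from this median. Trib3, Asns and Chac1 stayed under 20 CPM throughout. Larp1, which binds mRNAs with pyrimidine starts, was higher in the macrophage gate with CpG (24.1 to 56.2 CPM). Of 11 genes of the eIF2 kinases and stress response, Eif2ak2, which encodes the double-stranded RNA sensor PKR, was higher in all 4 gates with both agonists: 28.9, 89.5 and 83.9 CPM in the LysoDC gate, 34.9, 107 and 100.4 CPM in the macrophage gate, 12.3, 47.7 and 41.0 CPM in the mature gate and 12.9, 41.2 and 35.3 CPM in the cDC2 gate. Ddit3, which encodes a transcription factor of the stress response, was higher in the LysoDC gate with R848 (11.8 to 31.0 CPM) and in the mature gate with both agonists (10.7, 28.8 and 42.2 CPM).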

How the data were processed

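Per the submitters' processing notes, the authors used Cell Ranger 2.0.0 and the mm10 build. The deposited values are whole-number UMI counts, not normalized. Sources used here do not name the annotation release. Cells with under 500 genes or over 10% mitochondrial UMIs were left out, and doublets were scored against simulated pairs, at 0.8% per 1000 cells. UMIs were summed per library and gate and given as CPM with exact Poisson 95% intervals. Intervals of fold changes are exact conditional binomial and those of shares Clopper-Pearson. Molecules were counted by UMI, per the labels, and intervals cover counting error only. Log2 ratios add 5 CPM, a gene was measured at 20 CPM in either library, and 2-fold counted as a call. No test was possible. Alternatives were other gate limits, clusters, pseudocounts, totals, scaling, CPM minimums, no doublet removal and other thinning depths. Eif3f, the other Eif3 genes and members past 2-fold are given in full and the 5 nearest genes by distance. Members, gene lists and gates were chosen with earlier results of these data known. Interval code was tested on simulated data. Python 3.11.15 with numpy 2.4.6, scipy 1.17.1, scikit-learn 1.9.0 and leidenalg 0.10.2 was used.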

Additional observations from a re-analysis of the deposited data

Results flagged for a closer look

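5 members moved in opposite directions in different gates under the same contrast, by at least 0.5 on the log2 scale each way and with fold intervals clear of 1. Eif4a2 with CpG was higher than Control in the mature gate (0.73) and lower in the LysoDC gate (-0.61), a difference of 1.35. With R848, Eif2s1 (0.68 in the macrophage gate and -0.58 in the mature gate) differed by 1.26. Eif3a (0.63 and -0.52) and Eif1ad (0.57 and -0.57) each differed by 1.14 between the same gates, and Eif4e (0.56 and -0.51) by 1.07. With 1 library per group these differences were not tested.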

How the results depend on the processing

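No paired analysis was possible because each group has 1 library. Of 561 recomputed values 514 kept within their limits, 47 moved and 0 reversed. Over 12 alternatives the CpG ratio of Eif3f in the LysoDC gate ran from -1.63 to -1.46 and its R848 ratio in the macrophage gate from -1.30 to -1.08. Adding 20 CPM gave Eif3f -1.46 (CpG) and -1.18 (R848) in the LysoDC gate, and -1.37 and -1.15 after subtracting the median of the other subunits. Scaling by the median ratio gave -1.85 (mature) and -1.92 (cDC2) with CpG and -1.34 (LysoDC) and -1.39 (cDC2) with R848, since the median gene stood up to 0.17 above 0. With clusters in place of gates, the subtracted R848 value in the macrophage gate was -1.40. The count of higher members with CpG in the mature gate (Eif1a) became 0 without doublet removal, with clusters, with a total lacking ribosomal protein and mitochondrial genes, with 20 CPM added and with the median ratio. The count of higher members with R848 in the macrophage gate (Eif5) became 0 with 20 CPM added and with the median ratio, and that with CpG became 1 with clusters. The count of lower members with R848 in the mature gate became 2 without doublet removal, with gate limits divided by 2, with clusters, with the reduced total, with the mean over cells and without a CPM minimum. The cause was not tested. The share of cells with an Eif3f UMI depends on depth. Thinned to 6000 UMIs it was 84.0%, 42.5% and 52.0% (LysoDC gate, Control, CpG and R848), 73.8%, 41.1% and 45.3% (macrophage), 96.6%, 54.8% and 70.8% (mature) and 96.6%, 67.4% and 77.5% (cDC2). That depth kept 118, 1300 and 890 cells of the mature gate and left out 222, 1552 and 1334. In the cDC2 gate 1070, 469 and 373 cells were kept and 911, 61 and 112 left out. Without thinning the share was 91.2%, 68.9% and 73.9%, 85.7%, 64.8% and 69.4%, 87.6%, 54.8% and 66.9%, and 94.5%, 77.5% and 82.5%. Few cells limit the treated cDC1 gate, where 24 and 11 cells gave 28 and 24 Eif3f UMIs, and the lysozyme-high and mature cells, where 10 Control and 16 CpG cells gave 17 and 16.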
